A study of Mus musculus with 8 samples.

Results

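The cadherin superfamily genes described here are the 42 genes of the deposited table whose symbols begin with Cdh, Pcdh, Dsg or Dsc followed by a number, leaving out Cdh5 and Cdh19, out of 23827 rows in all. Polyadenylated RNA was sequenced from the superior cervical ganglia, the uppermost pair of sympathetic ganglia, taken from mice on postnatal day 1. In conditional knockout (cKO) animals, genotype KIF1Bb fl/fl : DBHcre +/-, Cre recombinase under the promoter of the dopamine beta-hydroxylase gene acts in noradrenergic cells on a floxed allele of Kif1b, which encodes an axonal kinesin motor. The control animals, called WT here after their labels, carried the same floxed allele without Cre (DBHcre -/-), so that the effect of Cre itself and that of the deletion cannot be told apart. All animals were of the strain labelled C57Bl6/n. There were 4 cKO and 4 WT libraries, each from the ganglion pair of 1 animal.

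Cadherins are calcium-dependent adhesion proteins whose extracellular repeats bind cadherins on a neighbouring cell. Classical cadherins of types I and II hold cells together at adherens junctions and synapses and are tied to actin by the catenins, while the desmogleins and desmocollins build desmosomes, which plakophilins, plakoglobin and desmoplakin tie to intermediate filaments. The delta protocadherins have a different cytoplasmic tail, bind more weakly and act in axon growth and in the sorting of neuronal contacts.

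Total counts lay between 16214912 and 18114418 per library, and 0.0844% to 0.106% of them fell on the 42 genes. Kif1b had 302, 191, 299.7 and 246 CPM (counts scaled to TMM-adjusted library size) in the cKO libraries and 1454, 1319.8, 933 and 1191 CPM in the WT libraries, so the labels and the targeted gene matched in all 8. The 9 sympathetic neuron markers, among them Th and Dbh, were all detected, none was called, and their sum was lower in every cKO library, at 10073 to 11379 CPM, than in every WT library, at 11544 to 12814 CPM. Summed markers were higher in every cKO than in every WT library for endothelium (248 to 263 CPM against 146 to 199 CPM, 3 of 7 markers called higher), mural cells (258 to 362 against 166 to 191 CPM, 2 of 6), fibroblasts (3944 to 5997 against 2874 to 3644 CPM, 4 of 7) and glia (1162 to 1306 against 864 to 1094 CPM, 1 of 8). In whole ganglia, fewer cells of a type and less RNA per cell cannot be told apart. Muscle and cartilage markers stood highest in replicate 1 of each group (136 CPM in cKO 1, 57.6 CPM in WT 1, and 14.2 to 21.7 CPM in the other 6 libraries), and sensory neuron markers in replicate 4 (139.6 CPM in cKO 4, 57.3 CPM in WT 4, and 19.2 to 42.3 CPM elsewhere).

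Of the 42 genes, 31 had enough reads to be tested, and 5 of them fell in cKO ganglia at an adjusted p below 0.05 in edgeR's quasi-likelihood test: Cdh8, Pcdh10, Dsg2, Dsg3 and Dsc2. That is 16.1% of the members tested, where 2.72% of all 14592 tested genes were called and 1.12% were called lower. The members were chosen with earlier results of these data known, so the shares of members given here are descriptions and not tests. Dsg2, Dsg3 and Dsc2 lie in 1 gene cluster, so the 5 calls may not be independent of each other. With 1 library left out, 3 to 6 members passed, 3 of them (Cdh8, Pcdh10 and Dsg2) without WT 2 or WT 4. Without replicate 1 of both groups 5 passed, with Cdh1 in place of Dsc2, and without replicate 4 of both groups 2 passed, Cdh8 and Pcdh10. No member was called higher with TMM scaling, the filter on low counts and all libraries, against 1.6% of all tested genes. With library size alone, without that filter, or in the Wald test of DESeq2, 1 member, Cdh1, was called higher. At an unadjusted p below 0.05 there were 11 members, against 16.8% of all tested genes. Of these, 3 were higher, a share close to the 9.42% of all genes, and 8 were lower, against 7.42% of all genes. The median log2 fold change (cKO over WT) was 0.01 over the 31 members and 0.00 over all genes (-0.000618), with 18 members above and 13 below 0. Groups did not overlap in 9 members, 2 higher and 7 lower in cKO, against 11% of all genes, 6% higher and 5.02% lower. The 5 that fell had log2 fold changes from -1.75 to -0.60, while 11 of the 31 had a log2 fold change smaller than 0.1 in size. Of the members, 4 had a log2 fold change below -1 (Cdh8, Pcdh10, Dsg2 and Dsg3), as did 0.548% of all tested genes.

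**Figure D1:**
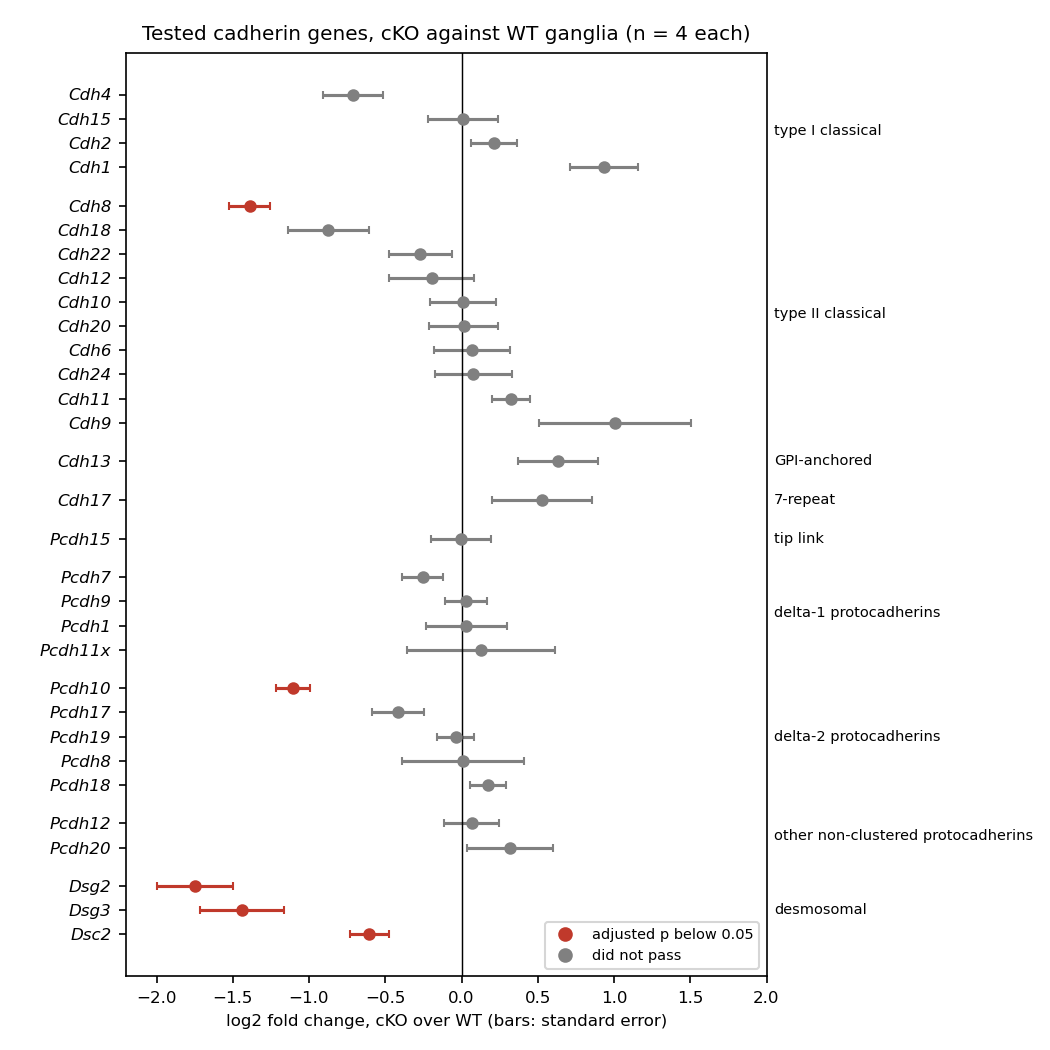
Log2 fold changes (cKO over WT) of the 31 tested members, grouped by role from top to bottom, with standard errors as bars and red points for adjusted p below 0.05 (n = 4 libraries a group). The 5 red points lie between -1.75 and -0.60, and all 3 tested desmosomal cadherins are among them.

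Among the classical cadherins, the change was in Cdh8, a type II cadherin of neurons found at synapses (chromosome 8, 99024471 to 99416471, minus strand, GRCm38). It had 26.9, 37.3, 33.0 and 30.6 CPM in the cKO libraries and 72.3, 97.2, 76.7 and 88.3 CPM in the WT libraries. Every cKO library was below every WT library, and replicate 2 was the highest in both groups. The means were 31.9 ± 4.3 CPM in cKO and 83.6 ± 11.3 CPM in WT (SD, n = 4 each; log2 fold change -1.39, SE 0.13, edgeR adjusted p = 0.00109). Its exact two-sided permutation p, over all 70 assignments of 8 libraries to groups of 4, was 0.0286, which is the smallest possible. The call held with each library left out in turn, with log2 fold changes from -1.47 to -1.31. Set against the summed neuron markers of the same library, Cdh8 stood at 2.92 ± 0.29 CPM per 1000 marker CPM in cKO and 6.93 ± 1.05 in WT ganglia (SD, n = 4 each; exact two-sided permutation p = 0.0286), again without overlap. Ratios to neuron markers were taken only for the 5 members that passed, whose CPM groups were already separate. Their p-values, here and below, are therefore no independent support.

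Pcdh10, a delta-2 protocadherin that recruits the actin-regulating WAVE complex and is needed for the growth of some axons, also fell (chromosome 3, 45378398 to 45435623, plus strand, GRCm38). It had 98.4, 81.4, 102.4 and 107 CPM in cKO and 221, 219, 189.8 and 207 CPM in WT libraries. Each group was tight and the groups stood far apart. The means were 97.2 ± 11.1 CPM in cKO and 209 ± 14 CPM in WT (SD, n = 4 each; log2 fold change -1.10, SE 0.11, edgeR adjusted p = 0.00134; exact two-sided permutation p = 0.0286). With each library left out it passed every time, with log2 fold changes between -1.15 and -1.03. Per 1000 neuron marker CPM, Pcdh10 had 8.93 ± 1.17 CPM in cKO and 17.4 ± 2.0 CPM in WT ganglia (SD, n = 4 each; exact two-sided permutation p = 0.0286).

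The 250 bases before the annotated start of both genes are shown because these are the members that fell in every setting tried, with each library left out and with both replicates 1 or both replicates 4 left out. The sequences are RefSeq's, on GRCm38.p6, and run 5′ to 3′ on the gene's own strand, chr3:45378148-45378397 (plus) for Pcdh10 and chr8:99416472-99416721 (minus) for Cdh8. Capitals mark 3 short motifs searched on both strands: the GC box GGGCGG, the CCAAT box CCAAT, and TGACG, the core of the cyclic AMP response element.
Pcdh10: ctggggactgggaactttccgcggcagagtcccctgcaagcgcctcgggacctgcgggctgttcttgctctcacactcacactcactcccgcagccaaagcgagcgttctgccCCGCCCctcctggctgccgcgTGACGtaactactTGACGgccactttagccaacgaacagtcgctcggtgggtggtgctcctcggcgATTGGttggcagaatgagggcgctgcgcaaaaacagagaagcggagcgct
Cdh8: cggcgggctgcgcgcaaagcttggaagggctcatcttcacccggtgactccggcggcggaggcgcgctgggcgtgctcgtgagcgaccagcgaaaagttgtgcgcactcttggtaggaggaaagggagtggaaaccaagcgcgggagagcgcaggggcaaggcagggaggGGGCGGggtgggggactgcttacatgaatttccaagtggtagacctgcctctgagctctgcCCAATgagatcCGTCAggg
Both windows were rich in G and C, at 63.2% in Pcdh10 and 64.4% in Cdh8. Each held 1 GC box and 1 CCAAT box, which occur in 32.7% and 33.8% of the 32851 windows of the same length in the RefSeq table. TGACG occurred at 2 places in Pcdh10 and 1 place in Cdh8, against 17.8% of all windows with at least 1, and the full element TGACGTCA, which contains TGACG, occurred in neither (1.55% of windows). An E-box, CANNTG, stood once in Cdh8 and not in Pcdh10, against 66.2% of windows, and the TATA box TATAAA in neither, against 12.4%. These matches are letters in a window and say nothing of which factors bind there.

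**Figure D2:**
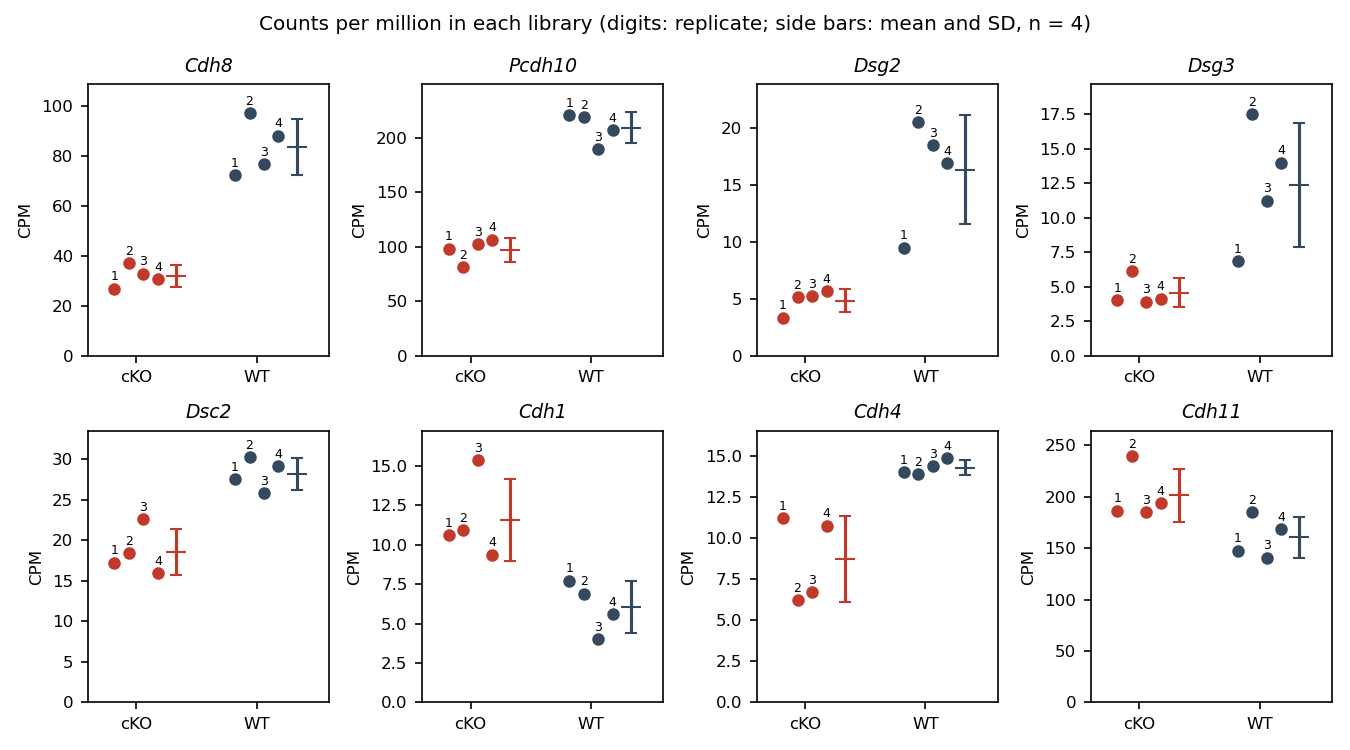
CPM (TMM-scaled) in each library for the 5 members that passed and for Cdh1, Cdh4 and Cdh11, with cKO on the left and WT on the right of each panel; digits give the replicate, and side bars the mean and SD of 4 libraries. The groups are separate in all 8 panels, with cKO lower except in Cdh1 and Cdh11.

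The desmosomal cadherins form a gene cluster on chromosome 18, and the 3 with enough reads to be tested, out of 9, all fell in cKO ganglia. Desmoglein 2, the most widely expressed desmoglein (Dsg2, 20558074 to 20604521, plus strand, GRCm38), had 3.37, 5.13, 5.28 and 5.66 CPM in cKO and 9.50, 20.6, 18.5 and 17.0 CPM in WT libraries. WT 1 was the low one of its group but still stood above every cKO library. The means were 4.86 ± 1.02 CPM in cKO and 16.4 ± 4.8 CPM in WT (SD, n = 4 each) (log2 fold change -1.75, SE 0.25, edgeR adjusted p = 0.00673; exact two-sided permutation p = 0.0286). No tested member had a more negative log2 fold change. It passed with each library left out, at log2 fold changes between -1.95 and -1.62, and did not pass without replicate 4 of both groups (log2 fold change -1.82, adjusted p = 0.0571).

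Desmoglein 3, in other tissues the desmoglein of deep squamous epithelium (Dsg3, 20510274 to 20547459, plus strand), lies 10.6 kb before Dsg2 in the same direction. It had 4.06, 6.15, 3.92 and 4.15 CPM in cKO and 6.87, 17.5, 11.2 and 14.0 CPM in WT libraries. The groups came close between cKO 2 and WT 1, and WT 1 was again the lowest of the WT libraries. Dsg3 averaged 4.57 ± 1.06 CPM in cKO and 12.4 ± 4.5 CPM in WT (SD, n = 4 each; log2 fold change -1.44, SE 0.27, edgeR adjusted p = 0.0246). Its call was lost in 4 of 8 settings that left out 1 library (without cKO 3, cKO 4, WT 2 or WT 4), with log2 fold changes from -1.65 to -1.23 over all 8.

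Desmocollin 2, the usual partner of desmoglein 2 (Dsc2, 20030633 to 20059554, minus strand), changed least of the 3 and was the most abundant of them. It had 17.3, 18.4, 22.6 and 16.0 CPM in cKO and 27.5, 30.3, 25.8 and 29.2 CPM in WT libraries, without overlap. The means were 18.6 ± 2.9 CPM in cKO and 28.2 ± 1.9 CPM in WT (SD, n = 4 each; log2 fold change -0.60, SE 0.13, edgeR adjusted p = 0.0363). The call was lost in 6 of 8 settings with 1 library left out, all except those without cKO 3 or WT 1, while log2 fold changes stayed between -0.72 and -0.54. Per 1000 neuron marker CPM, the groups of Dsc2 met, at 1.70 ± 0.28 CPM in cKO and 2.34 ± 0.24 CPM in WT (SD, n = 4 each; exact two-sided permutation p = 0.0571), whereas those of Dsg2 (0.442 ± 0.074 and 1.35 ± 0.39 CPM) and Dsg3 (0.417 ± 0.086 and 1.03 ± 0.38 CPM; SD, n = 4 each) stayed apart (exact two-sided permutation p = 0.0286 for both).

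The other 6 desmosomal cadherins were near the limit of detection. Dsc3 had 38 counts over the cKO and 9 over the WT libraries, from 0.270 to 0.836 CPM in cKO and from 0.0573 to 0.313 CPM in WT, and was too low to test. Dsg1a had 4 counts in cKO and 0 in WT libraries, Dsc1 had 2 and 1, and Dsg1b, Dsg1c and Dsg4 had 0 in cKO and 1 in WT libraries each. Epithelium, the tissue best known for desmosomes, was barely represented: all 9 of its markers were detected, none had enough reads to be tested, none exceeded 15 counts in a library, and their sum was 1.07 to 3.03 CPM in cKO and 0.687 to 3.74 CPM in WT libraries. Summed over all 9 genes, desmosomal cadherin reads came to 25.6 to 32.2 CPM in cKO and 44.0 to 68.8 CPM in WT libraries.

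**Figure D3:**
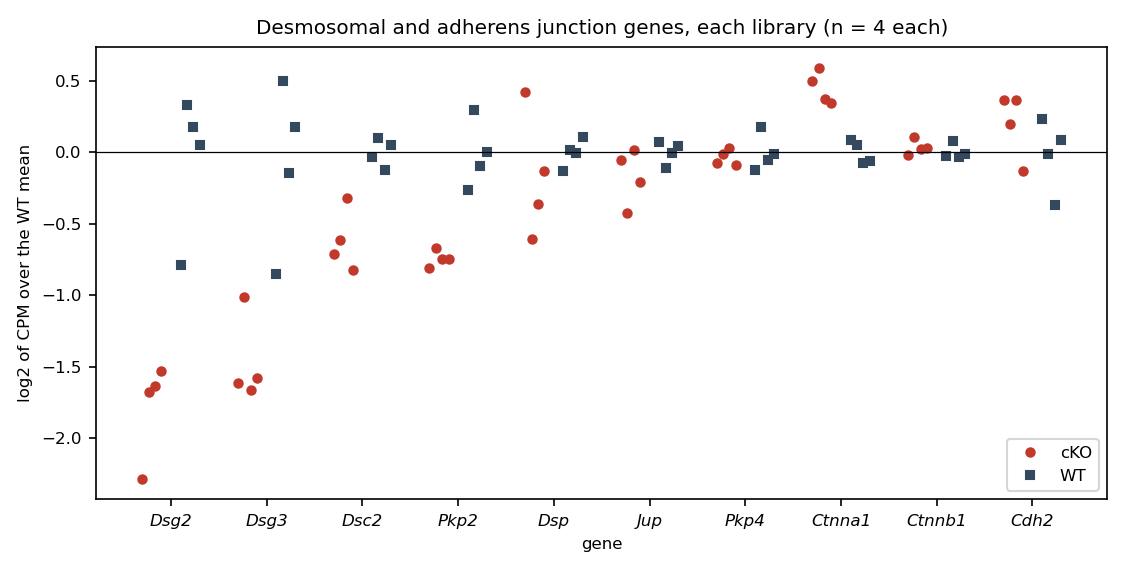
Log2 of CPM over the WT mean in each of 4 cKO (red circles) and 4 WT (dark squares) libraries for desmosomal cadherins (Dsg2, Dsg3, Dsc2), desmosomal plaque genes (Pkp2, Dsp, Jup, Pkp4), catenins and Cdh2. Dsg2, Dsg3, Dsc2 and Pkp2 lie lower and Ctnna1 higher in all cKO than in all WT libraries, and the groups overlap in the other 5 genes.

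On the cytoplasmic side of these junctions, 3 of 48 tested partner genes passed (6.25%, against 2.72% of all genes), 1 higher and 2 lower. Plakophilin 2 (Pkp2), which anchors desmosomal cadherins in the plaque, had 3.14, 3.46, 3.29 and 3.29 CPM in cKO and 4.60, 6.77, 5.15 and 5.53 CPM in WT libraries (log2 fold change -0.74, SE 0.16, edgeR adjusted p = 0.0429). Alpha-catenin (Ctnna1), which ties classical cadherins to actin, had 246, 262, 225 and 220.4 CPM in cKO and 184, 179.8, 165 and 167 CPM in WT libraries (log2 fold change 0.45, SE 0.10, edgeR adjusted p = 0.0353). Fat3, a giant cadherin, had 1.09, 0.537, 0.852 and 1.56 CPM in cKO and 1.96, 3.01, 2.23 and 3.16 CPM in WT libraries (log2 fold change -1.34, SE 0.31, edgeR adjusted p = 0.0487). Groups did not overlap in any of the 3 genes, but each call was lost in at least 6 of 8 settings with 1 library left out, and none of the 3 passed in edgeR without cKO 1, cKO 2, cKO 3, WT 2, WT 3 or WT 4. Pkp2 also did not pass in edgeR with library size alone or without the filter on low counts (adjusted p = 0.052 and 0.0583). The remaining plaque and catenin genes did not pass: the log2 fold change was -0.12 (SE 0.20) for desmoplakin (Dsp), -0.16 (SE 0.11) for plakoglobin (Jup), 0.04 (SE 0.08) for beta-catenin (Ctnnb1) and -0.12 (SE 0.11) for the neural alpha-catenin Ctnna2. Among the 10 WAVE complex and other protocadherin partners none passed in edgeR or in the Wald test of DESeq2, and in edgeR 2 of the 10, Cyfip2 and Cyfip1, had an unadjusted p below 0.05, against 16.8% of all tested genes. For Nckap1, the WAVE subunit that Pcdh10 binds, the log2 fold change was -0.22 (SE 0.10).

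The members with the highest levels per length were not among those that fell. Divided by merged exon length, N-cadherin (Cdh2), the main type I cadherin of neurons, stood at 36.9 CPM per kb in cKO and 31.9 in WT ganglia, and Cdh11, a type II cadherin typical of mesenchyme, at 35.6 in cKO and 28.4 in WT. Together they made up 54.0% of the summed level of the 42 genes in cKO and 42.5% in WT ganglia. Pcdh10 and Cdh8 ranked 4 and 7 by level per length in cKO, against 3 and 4 in WT, and the share of the 5 genes that fell was 11.7% in cKO and 24.4% in WT. Summed CPM of all 42 genes lay between 825 and 919.9 in cKO and between 879.8 and 1076 in WT libraries, and these ranges overlap.

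**Figure D4:**
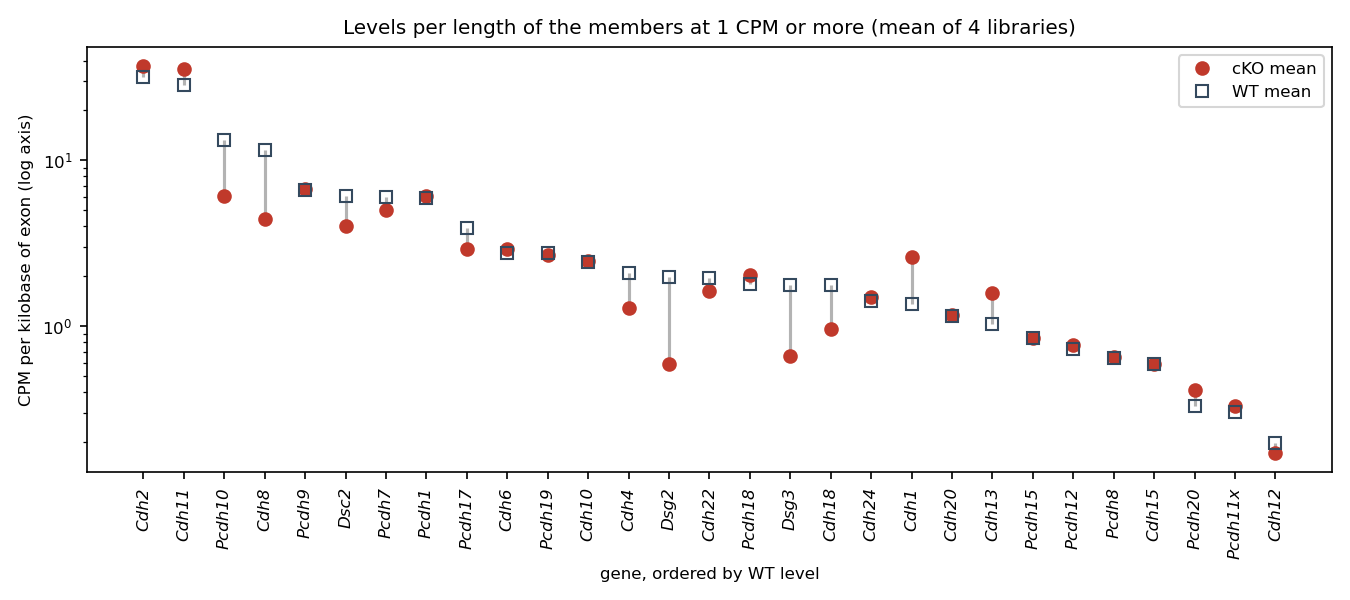
Mean level per length (CPM per kilobase of merged exon, log axis) of the 29 members at 1 CPM or more, in order of the WT level, for cKO (red circles) and WT (open squares; mean of 4 libraries each). Cdh2 and Cdh11 lead in both groups, and among the longest vertical gaps are those of Dsg2, Dsg3, Cdh8 and Pcdh10.

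Cdh2 had 203.1, 181, 203.1 and 144 CPM in cKO and 185, 157, 122 and 167 CPM in WT libraries, overlapping groups with a log2 fold change of 0.21 (SE 0.15). Cdh11 had 186, 239, 185 and 194 CPM in cKO and 147, 185, 141 and 168 CPM in WT libraries. The groups of Cdh11 just failed to touch, between cKO 3 and WT 2, and its log2 fold change of 0.33 (SE 0.12) did not pass (edgeR adjusted p = 0.211). The fibroblast markers given above were higher in the same libraries, and among cKO libraries both they and Cdh11 were highest in cKO 2. Among WT libraries, Cdh11 was highest in WT 2, where the fibroblast sum was lowest (2874 CPM). It was lowest in WT 3, where that sum was highest (3644 CPM). The part of fibroblasts in this difference was not tested.

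E-cadherin (Cdh1), the type I cadherin of epithelia, came nearest to passing among the members with higher values. It had 10.6, 10.9, 15.4 and 9.39 CPM in cKO and 7.72, 6.89, 4.01 and 5.59 CPM in WT libraries, without overlap. Its log2 fold change was 0.94 (SE 0.22, edgeR adjusted p = 0.0545), and it passed in 5 settings (library size alone, no filter, the Wald test of DESeq2, without WT 1 and without replicate 1 of both groups), with adjusted p from 0.00321 to 0.186 over all settings. Summed glial, endothelial, mural cell and fibroblast markers were all higher in the same cKO libraries, and their part in this was not tested. Within the groups, Cdh1 was highest in cKO 3, which had the lowest glial sum of the cKO libraries (1162 CPM). It was lowest in WT 3, which had the highest glial sum of the WT libraries (1094 CPM). The epithelial markers were at the trace level given above. Cdh13, a cadherin held in the membrane by a lipid anchor and common in blood vessels, had 7.54, 6.15, 4.31 and 6.04 CPM in cKO and 5.64, 2.57, 2.98 and 4.32 CPM in WT libraries (log2 fold change 0.63, SE 0.26, edgeR adjusted p = 0.252). Its groups overlapped. For scale, Cdh5, the endothelial cadherin left out of the set, differed by 0.53 on the log2 scale (SE 0.14), and Cdh19, a cadherin of the Schwann cell lineage also left out, by 0.73 (SE 0.21), and neither passed.

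R-cadherin (Cdh4), a neural type I cadherin, had 11.2, 6.21, 6.70 and 10.7 CPM in cKO and 14.0, 13.9, 14.4 and 14.8 CPM in WT libraries. The WT libraries lay within 1 CPM of each other and all cKO libraries were below them, though unevenly, and the log2 fold change of -0.71 (SE 0.20) did not pass (edgeR adjusted p = 0.0884), though it did in the Wald test of DESeq2 (adjusted p = 0.0145). Cdh18, a type II cadherin of the nervous system, had 2.11, 2.33, 2.04 and 4.05 CPM in cKO and 3.86, 6.46, 4.07 and 4.99 CPM in WT libraries (log2 fold change -0.87, SE 0.26, edgeR adjusted p = 0.115). The groups overlapped only through cKO 4. Cdh18 passed in the Wald test of DESeq2 with all libraries (adjusted p = 0.0348), and in edgeR without cKO 4 (log2 fold change -1.16, adjusted p = 0.036). The 7 tested type II cadherins other than Cdh8, Cdh11 and Cdh18 had log2 fold changes from -0.27 (Cdh22) to 1.01 (Cdh9, below 1.2 CPM in every library, SE 0.50), and none passed. Cdh6, the most abundant of these, varied more within than between groups, from 14.8 to 30.1 CPM in cKO and from 13.7 to 26.3 CPM in WT libraries (log2 fold change 0.07, SE 0.25).

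Within the delta-2 protocadherins, Pcdh10 stood alone among 5 in passing. Pcdh17, found at nerve endings and along axons in the brain, had 36.7, 22.2, 36.8 and 38.7 CPM in cKO and 41.1, 49.8, 40.8 and 47.8 CPM in WT libraries. Its gene overlaps 9630013A20Rik in the annotation. The groups did not overlap, and the log2 fold change of -0.42 (SE 0.17) did not pass (edgeR adjusted p = 0.24). Pcdh19, an X-linked protocadherin known from human epilepsy, had 32.6, 23.8, 29.2 and 24.5 CPM in cKO and 28.9, 27.6, 29.1 and 27.5 CPM in WT libraries (log2 fold change -0.04, SE 0.12). The log2 fold change of Pcdh18 was 0.18 (SE 0.12) and that of Pcdh8 was 0.01 (SE 0.40).

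None of the 4 delta-1 protocadherins passed, in edgeR or DESeq2, and none had an unadjusted p below 0.05 in edgeR. Pcdh7 had 56.1, 44.1, 52.6 and 51.7 CPM in cKO and 61.7, 67.9, 47.2 and 67.1 CPM in WT libraries (log2 fold change -0.25, SE 0.13). Pcdh9 had 41.2, 40.8, 43.7 and 49.0 CPM in cKO and 35.9, 48.8, 36.5 and 50.3 CPM in WT libraries (log2 fold change 0.03, SE 0.14). The groups of both overlapped. Pcdh1 had 80.3, 32.8, 49.3 and 42.1 CPM in cKO and 66.6, 36.9, 43.8 and 52.8 CPM in WT libraries (log2 fold change 0.03, SE 0.26). It spread widely in each group, with replicate 1 the highest in both. Pcdh11x, on the X chromosome, had 2.29, 2.63, 1.70 and 9.17 CPM in cKO and 2.88, 3.51, 2.86 and 5.29 CPM in WT libraries. Replicate 4 was the highest in both groups, as it was for the sensory neuron markers, whose part was not tested (log2 fold change 0.12, SE 0.49).

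The remaining tested members were the tip-link protocadherin of hair cells, Pcdh15, at -0.01 on the log2 scale (SE 0.20), the endothelial Pcdh12 at 0.07 (SE 0.18), Pcdh20 at 0.32 (SE 0.28), the muscle cadherin Cdh15 at 0.01 (SE 0.23) and the intestinal cadherin Cdh17 at 0.53 (SE 0.33). None passed. The 11 members that were not tested, 6 of them desmosomal, had at most 14 counts in any library; the others were Cdh3, Cdh7, Cdh16, Cdh23 and Cdh26.

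The clustered protocadherins, which lie in 3 arrays on chromosome 18 and give single neurons distinct surface identities, were looked at beside the members. No gene passed among 56 tested in edgeR, and the Wald test of DESeq2 called 1, Pcdhb11. In edgeR 10 of the 56 had an unadjusted p below 0.05, close to the 16.8% of all tested genes, but mostly in 1 direction. Of these, 9 were lower, against 7.42% of all genes, and 1 was higher, against 9.42%. Groups did not overlap in 5 of the 56, all of them beta genes and lower in cKO, against 5.02% of all genes. All 13 tested alpha genes, 17 of 21 beta genes and 14 of 22 gamma genes had negative log2 fold changes, against 50.1% of all genes, with medians of -0.25, -0.17 and -0.07. Of the 9 sympathetic neuron markers, 7 had negative log2 fold changes, with a median of -0.16 and a lower sum in every cKO than in every WT library, and their part in the lean of the clustered genes was not tested. Summed, the alpha genes had 127 ± 30 CPM in cKO and 158 ± 31 CPM in WT, and the beta genes 235 ± 18 CPM in cKO and 267 ± 17 CPM in WT (SD, n = 4 each). The gamma genes summed to 259.8 ± 52.5 CPM in cKO and 259.5 ± 54.2 CPM in WT (SD, n = 4 each), and the libraries of the groups overlapped in all 3 sums. Genes of the alpha and of the gamma array share their last exons, and the assignment of reads there is not stated, so single alpha and gamma values are uncertain and not independent.

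**Figure D5:**
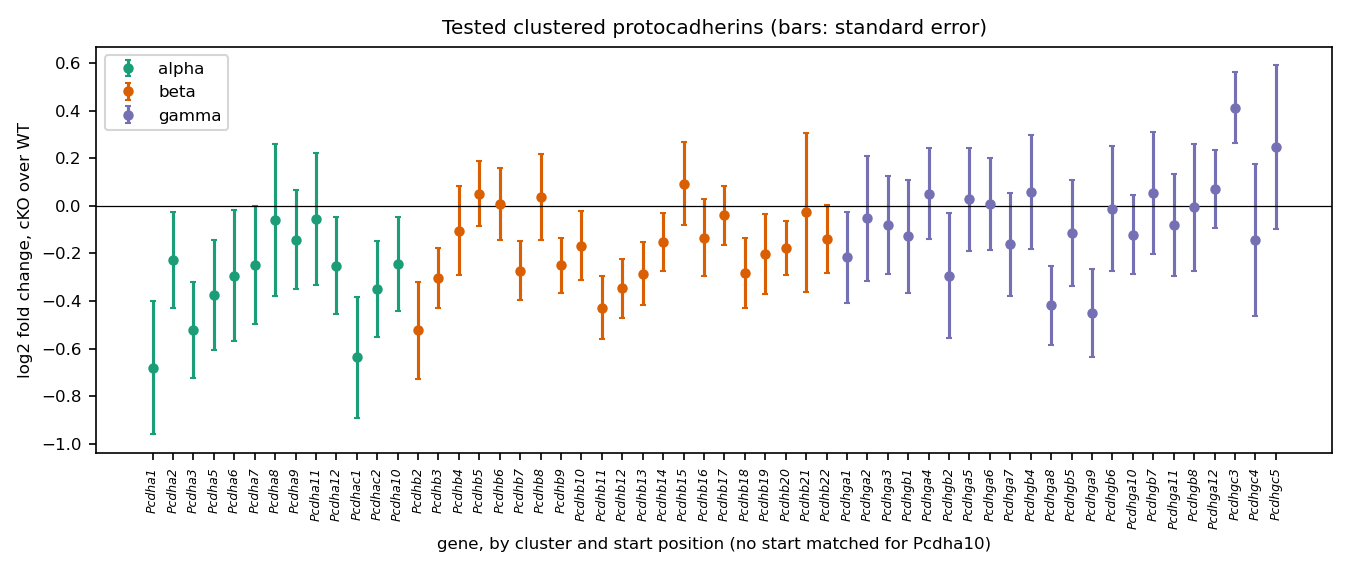
Log2 fold changes (cKO over WT) of the 56 tested clustered protocadherins with standard errors, by array and start position. Alpha genes (green) all lie below 0, beta genes (orange) lie between -0.52 and 0.09, and gamma genes (purple) lie on both sides of 0.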

How the data were processed

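The authors deposited a single table of unnormalized read counts, with 1 row for each gene symbol and 1 column for each of 8 libraries. Per the submitters' processing notes, the authors aligned reads with STAR to mm10; not given in the sources used here are the counting program, the annotation and whether strand was used. Per the labels' protocols, polyadenylated RNA was made into TruSeq v2 libraries.

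Columns were assigned by sample title. The quasi-likelihood test of edgeR 4.0.16 (R 4.3.3) was run on 14592 genes after filterByExpr and TMM scaling, with a robust fit and a term for group alone, and Benjamini-Hochberg adjustment over all tested genes and a threshold of 0.05. SE is the absolute log2 fold change over the square root of F. Exact permutation tests used all 70 assignments, on log2 CPM (prior count 2) for genes and untransformed ratios to neuron markers. Exon lengths and coordinates of the 42 members are from GENCODE vM21 (GRCm38), basic set; 2 members overlap another tested gene there, Cdh12 with Acot10 and Pcdh17 with 9630013A20Rik. RefSeq promoter windows were matched by symbol for 22 members. The steps were tested on simulated counts, with 200 changed genes. They recovered 16.4% of genes changed 1.5-fold, 86.6% of those changed 2-fold and 97.0% of those changed 4-fold. Of the calls, 7.64% were false at the threshold of 0.05. Small changes that did not pass may thus have been missed. Replicates differed by more than sampling noise (chi-square per gene 8.00 to 58.6), and each library came from a separate animal.

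Named members are those that passed, the 10 with the highest mean CPM and the 3 with the smallest p each way that did not pass; members beyond this rule were named after their values were seen. Partner genes that passed are named, and others beside them likewise. The members and lists were chosen with earlier results of these data known. Alternatives were DESeq2 1.42.0 size factors, library size alone, 2 other filters, the DESeq2 Wald test, limma 3.58.1 voom, a replicate block, and libraries left out.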

Additional observations from a re-analysis of the deposited data

Results flagged for a closer look

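In 5 of 62 groups of 4 libraries, 1 library of a tested member stood apart from the other three by more than Dixon's critical share of the group's range; chance flags about 5% of groups. All 5 were in cKO, 3 of them in cKO 2 and 2 in cKO 4. In cKO 4, Pcdh11x had 9.17 CPM, against 1.70 to 2.63 CPM in the other cKO libraries, and Cdh18 had 4.05 CPM, against 2.04 to 2.33 CPM. In cKO 2, Dsg3 had 6.15 CPM, against 3.92 to 4.15 CPM, Cdh11 had 239 CPM, against 185 to 194 CPM, and Pcdh17 had 22.2 CPM, against 36.7 to 38.7 CPM. Sensory neuron markers were highest in cKO 4 and fibroblast and mural cell markers in cKO 2, and their part was not tested.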

How the results depend on the processing

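The DESeq2 Wald test called 1012 genes and 8 members (Cdh1, Cdh4 and Cdh18 in addition to the 5), against 397 genes and 5 members. With a replicate block 687 genes and 6 members passed, Cdh4 in addition; same-numbered libraries deviated together for numbers 1, 2 and 4 (r = 0.725, 0.352 and 0.265) but not 3 (r = -0.302), only number 1 correlated best with itself, and the numbers are taken as names. With 1 library left out, 74 to 514 genes (74 without WT 4, 79 without WT 2, 137 without cKO 3, 147 without cKO 2, 249 without WT 3), 3 to 6 members and 0 to 3 partner genes passed; at 0, edgeR gave 4 to 9 partners at an unadjusted p below 0.05. Without replicate 1 of both groups 0 partners passed in edgeR (11 unadjusted). Without replicate 4 of both groups, chosen after seeing the data, 65 genes, 2 members (Cdh8, Pcdh10) and 0 partners passed in edgeR (5 unadjusted). The cause was not tested, beyond fewer libraries. Over 2292 pairs of a named, partner or clustered gene and a setting, 2240 kept their side of the threshold, 41 lost it, 11 gained it and 0 reversed a called direction. The members' median lay between -0.10 and 0.06 over all settings, and library size alone moved the median of all genes to 0.05. The 11 untested members, at 14 counts or fewer in every library, were too shallow to test.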

Other observations

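Within each library, ratios of member reads, chosen after their values were seen and so given with no test, separated the groups. There were 14.4 to 17.8 Cdh8 reads per 100 Cdh11 reads in cKO and 49.0 to 54.5 in WT libraries, and 268 to 368 Pcdh10 reads per 100 Pcdh17 reads in cKO and 434 to 537 in WT libraries. Dsg2 had 1.66 to 3.93 reads per 100 Cdh2 reads in cKO and 5.12 to 15.1 in WT libraries. These ratios also carry the differences of their denominators, none of which passed. Log2 fold changes were 0.33 for Cdh11 and 0.21 for Cdh2, which widen the ratios, and -0.42 for Pcdh17, which narrows them.

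The nearest tested protein-coding neighbours of the members that fell did not pass unless they were members themselves. Next to Dsg2, 60.8 kb away, Ttr had -0.23 on the log2 scale (SE 0.24, edgeR adjusted p = 0.738). Cdh8 lies between Got2 at -0.21 (SE 0.11, edgeR adjusted p = 0.386) and Cdh11, 3136 and 3216 kb away. Pcdh10 lies between D3Ertd751e at 0.06 (SE 0.18) and Pabpc4l at 0.59 (SE 0.21, edgeR adjusted p = 0.187).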
